A study of Mus musculus with 8 samples.

Results

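The genes described here are 35 genes of cell division, taken by symbol from a list of cell cycle genes and matched by Ensembl identifier to the rows of a table of raw read counts. All 35 were found among the 56748 rows, and all 35 passed the filter on low counts. By role, 5 act in G1 and its checkpoint (Ccnd1, Ccne1, Ccne2, E2f1 and Cdkn1a), 9 in DNA replication (Mcm2, Mcm3, Mcm4, Mcm5, Mcm6, Mcm7, Pcna, Rrm2 and Tyms) and 21 in mitosis or its preparation (Mki67, Top2a, Cdk1, Ccna2, Ccnb1, Ccnb2, Cdc20, Bub1, Bub1b, Aurka, Aurkb, Birc5, Plk1, Kif11, Kif20a, Kif23, Cenpe, Cenpf, Tpx2, Prc1 and Nusap1). The rule that chose them uses their names and no measured value, although the list was drawn up with earlier results of these data known.

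The libraries hold polyadenylated RNA of the forebrain of mice aged 18 months, 4 from TgCRND8 transgenic mice (Tg) and 4 from non-transgenic litter mates (NTg), and the labels name no treatment other than the age. TgCRND8 mice overexpress the amyloid precursor protein APP and are a model of brain amyloid deposition; the transgene is human APP with the Swedish and Indiana mutations under the hamster prion promoter. Replicates are numbered in the labels, which do not say that each library is a separate animal, so the p-values measure the spread between these libraries, which may be technical. Every library has the same batch value, F, whose meaning the labels do not give, so no split by batch could be made.

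In a dividing cell, D cyclins and E cyclins release E2F factors from the retinoblastoma protein, and E2F factors switch on genes for the replication licensing helicase, the sliding clamp and nucleotide supply. Genes for mitosis follow later, many of them through the cell cycle homology region (CHR), an element bound by the DREAM and MuvB complexes in their promoters. Most cells of the adult forebrain are neurons and other cells that have left the cycle, and the cells known to divide there include oligodendrocyte precursors, neural progenitors of the subventricular zone and dentate gyrus, and microglia near amyloid plaques.

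Promoter letters were searched for 28 of the 35 members, those with a RefSeq entry in the GRCm38.p6 promoter table (8 replication, 17 mitosis and 3 G1 members), in the window of 250 bases before to 50 bases after the start. The searched E2F letters were TTTCCCGC, TTTCGCGC, TTTGCCGC and TTTGGCGC, the CHR letters were TTTGAA, and CCAAT was searched as the box of factor NF-Y; all were read on both strands. E2F letters were in 4 of 8 replication promoters (50%; Mcm3, Mcm5, Mcm6 and Mcm7) and 1 of 17 mitosis promoters (5.88%; Cdk1), against 2.32% of all 27025 promoters. CHR letters were in 1 of 8 replication promoters (12.5%; Mcm2) and 12 of 17 mitosis promoters (70.59%), against 18.11% of all promoters. CCAAT was in 7 of 8 replication promoters (87.5%), 15 of 17 mitosis promoters (88.24%) and 0 of 3 G1 promoters, against 37.92% of all promoters. The promoters of other cell cycle genes, which are not members, had E2F letters in 33.33% of 36 replication promoters and 9.52% of 42 mitosis promoters, and CHR letters in 8.33% and 69.05% of the same promoters. The members' shares with CCAAT, 87.5% and 88.24%, stood beside 55.56% of these other replication promoters and 69.05% of these other mitosis promoters, a difference that was not tested. A match is a description of the letters and not a bound site.

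The 5 promoters printed here are of 2 helicase subunits with E2F letters and 3 mitosis genes with CHR letters, of which Cdk1 is the 1 mitosis member that also holds E2F letters. They are given as the 200 bases that end just before the start, 5′ to 3′ on the gene's strand, from RefSeq on GRCm38.p6. Capitals mark E2F or CHR letters, and where matches on opposite strands overlap they run together. Mcm5 (chr8:75109309-75109508, plus strand) and Mcm6 (chr1:128359706-128359905, minus strand) encode helicase subunits. Cdk1 (chr10:69352913-69353112, minus strand) encodes the mitotic kinase and has E2F letters from base −131 and CHR letters from bases −71 and −15. Mki67 (chr7:135716380-135716579, minus strand) encodes Ki-67 and has CHR letters from bases −116 and −98. Cdc20 (chr4:118437344-118437543, minus strand) encodes the activator of the anaphase-promoting complex.
Mcm5: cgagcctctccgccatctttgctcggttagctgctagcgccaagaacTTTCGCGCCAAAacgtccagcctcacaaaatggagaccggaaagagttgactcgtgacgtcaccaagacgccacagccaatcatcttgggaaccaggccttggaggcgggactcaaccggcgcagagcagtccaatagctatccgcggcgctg
Mcm6: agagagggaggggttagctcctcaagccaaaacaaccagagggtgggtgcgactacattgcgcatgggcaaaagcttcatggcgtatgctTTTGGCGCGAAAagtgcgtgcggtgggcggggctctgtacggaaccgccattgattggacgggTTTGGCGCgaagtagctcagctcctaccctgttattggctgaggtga
Cdk1: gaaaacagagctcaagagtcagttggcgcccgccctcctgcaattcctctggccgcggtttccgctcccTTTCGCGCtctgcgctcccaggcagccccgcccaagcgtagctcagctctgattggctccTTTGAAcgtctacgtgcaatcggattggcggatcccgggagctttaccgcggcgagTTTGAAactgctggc
Mki67: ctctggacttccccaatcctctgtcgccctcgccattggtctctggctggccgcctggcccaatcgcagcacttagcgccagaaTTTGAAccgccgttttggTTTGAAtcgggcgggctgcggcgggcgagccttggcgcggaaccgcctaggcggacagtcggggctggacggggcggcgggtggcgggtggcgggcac
Cdc20: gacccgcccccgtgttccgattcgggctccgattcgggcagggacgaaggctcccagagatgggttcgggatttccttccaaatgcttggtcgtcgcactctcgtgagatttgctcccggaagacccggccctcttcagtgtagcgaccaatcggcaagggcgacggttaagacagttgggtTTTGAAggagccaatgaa

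Library totals were 57129090 to 65242741 counts, so that 1 count was 0.0151 to 0.0178 CPM, the unit of counts scaled to library size. App, the mouse counterpart of the human APP transgene, had 2532, 2934, 2980 and 2958 CPM in Tg replicates 1 to 4. In NTg replicates 1 to 4 it had 1623, 1486, 1452 and 1390 CPM, without overlap. Of 21588 genes tested with edgeR's quasi-likelihood test, 3 differed at a Benjamini-Hochberg adjusted p under 0.05 (0.0139%), and 1589 at an unadjusted p under 0.05 (7.36%). The number called was 314 without Tg replicate 1, 9 without Tg replicate 2 and 16 without NTg replicate 1. Tg replicate 1 stood apart from the other Tg libraries in microglial genes, whose mean log2 CPM relative to the NTg mean was 0.28 in that library and 0.94 to 1.01 in the others. It also stood apart in the 8 forebrain markers (−0.43, others 0.01 to 0.11) and in the 6 red blood cell markers (0.61, others −2.12 to −1.36). The red blood cell markers were all lower on average in Tg libraries, by a mean of −1.21 log2 units, none at an unadjusted p under 0.05. The forebrain markers were present in all libraries, with summed levels of 299 to 376 CPM in Tg and 326 to 368 CPM in NTg libraries. In such bulk tissue, fewer cells of a type and less RNA per cell cannot be told apart.

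The members were expressed at low levels that differed by role. Per kilobase of merged exon (lengths from GENCODE M21), the median member level was 3.98 CPM in Tg and 3.72 CPM in NTg libraries for G1, 1.67 CPM in Tg and 1.49 CPM in NTg for replication, and 0.221 CPM in Tg and 0.217 CPM in NTg for mitosis. Pcna, the sliding clamp of DNA polymerases, had the highest level per kilobase, 12.9 CPM in Tg and 12.98 CPM in NTg libraries. Among mitosis members Nusap1, which binds and bundles spindle microtubules, had the highest level per kilobase, 0.861 CPM in both genotypes. The lowest levels per kilobase were those of Bub1 in Tg libraries (0.0505 CPM) and Cenpf in NTg libraries (0.0534 CPM). Without length scaling, 9 of 21 mitosis members in Tg and 10 in NTg averaged under 1 CPM; the 10 that did so in either genotype had 6 to 140 counts per library. In replication the 2 enzymes of nucleotide supply were lower per kilobase than all 6 helicase subunits: Rrm2 had 0.513 CPM in Tg and 0.506 CPM in NTg, and Tyms had 0.367 CPM in Tg and 0.345 CPM in NTg.

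**Figure D1:**
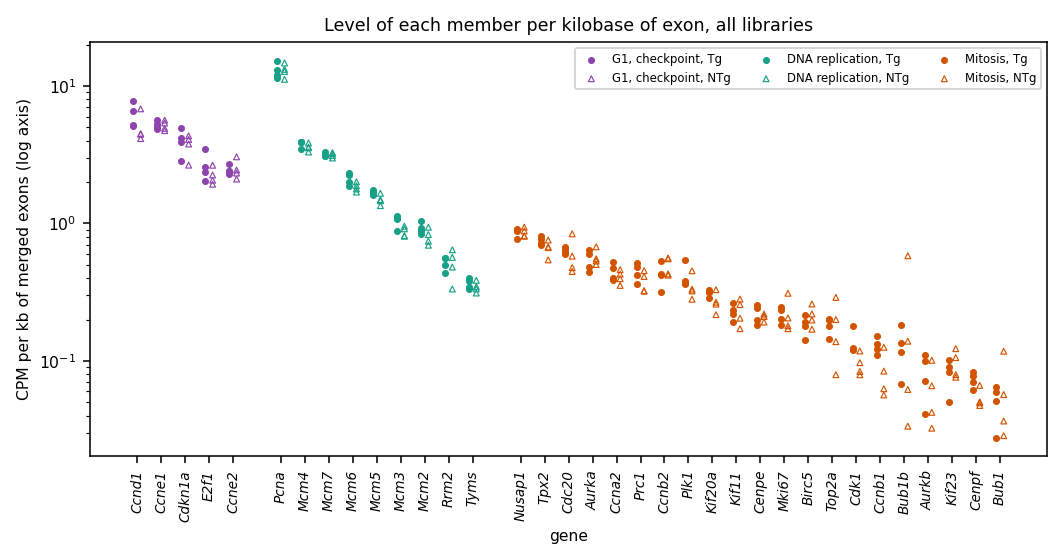
Level of each of the 35 members in CPM per kilobase of merged exon (log axis), by role; each point is 1 library, filled circles for Tg and open triangles for NTg. Pcna lies highest at a mean of 12.9 in Tg and 12.98 in NTg libraries. The mitosis members have the lowest median, 0.221 in Tg and 0.217 in NTg, with Nusap1 at 0.861 as their highest mean. The replication members Rrm2 and Tyms lie below Nusap1.

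No member passed the test between the genotypes. The edgeR test called 0 of 35 members at an adjusted p under 0.05, against 0.0139% of all genes, and the smallest adjusted p was 0.516, for Cenpf. DESeq2 called 0 members and gave no adjusted p to Bub1 and Aurkb, against 1.81% of all genes with an adjusted p, and limma-voom called 0 of 35, against 0.0139%. At an unadjusted p under 0.05, 4 members were higher in Tg libraries (Mcm3, Cdk1, Ccnb1 and Cenpf; 11.43%), against 4.68% of all genes, and 0 members were lower, against 2.68%. That count changed when 1 library was left out. It was 0 without Tg replicate 4 (3.9% of all genes) or NTg replicate 2 (3.76%). It was 1 without NTg replicate 1 (4.92%) or NTg replicate 3 (3.99%), and 2 without Tg replicate 2 (3.8%) or Tg replicate 3 (4.93%). It was 4 without Tg replicate 1 (5.72%) and 7 without NTg replicate 4 (5.68%). In those fits the log2 fold changes of the 4 genes kept their sign. They were 0.22 to 0.34 for Mcm3 and 0.36 to 0.65 for Cdk1. For Ccnb1 they were 0.51 to 0.93, and for Cenpf 0.39 to 0.57. The count of 4 was 1 of 35 in DESeq2 (Cenpf), against 4.29% of all genes. It was 2 of the 26 members that reached 1 CPM in 4 libraries (Mcm3 and Cenpf), against 5.11% of the genes that did. The direction leaned upwards: 26 members were higher on average in Tg libraries and 9 were lower (74.29% higher, against 49.2% of all genes). Under relative log expression (RLE) scaling 25 were higher, and 29 when scaled by library totals. The members' median log2 fold change (Tg over NTg) was 0.09, against −0.0024 for all genes tested. The median of all genes moved with the scaling, to −0.0061 under RLE and 0.0225 by library totals. The members' median was 0.04 without Tg replicate 2 and 0.17 without NTg replicate 4. Leaving out NTg replicate 2 left 21 members higher. The share of all genes higher was not computed for these alternatives. In 1 member, Cdk1, every Tg library lay above every NTg library, against 2.62% of all genes, and in 0 members did every Tg library lie below, against 1.58%.

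**Figure D2:**
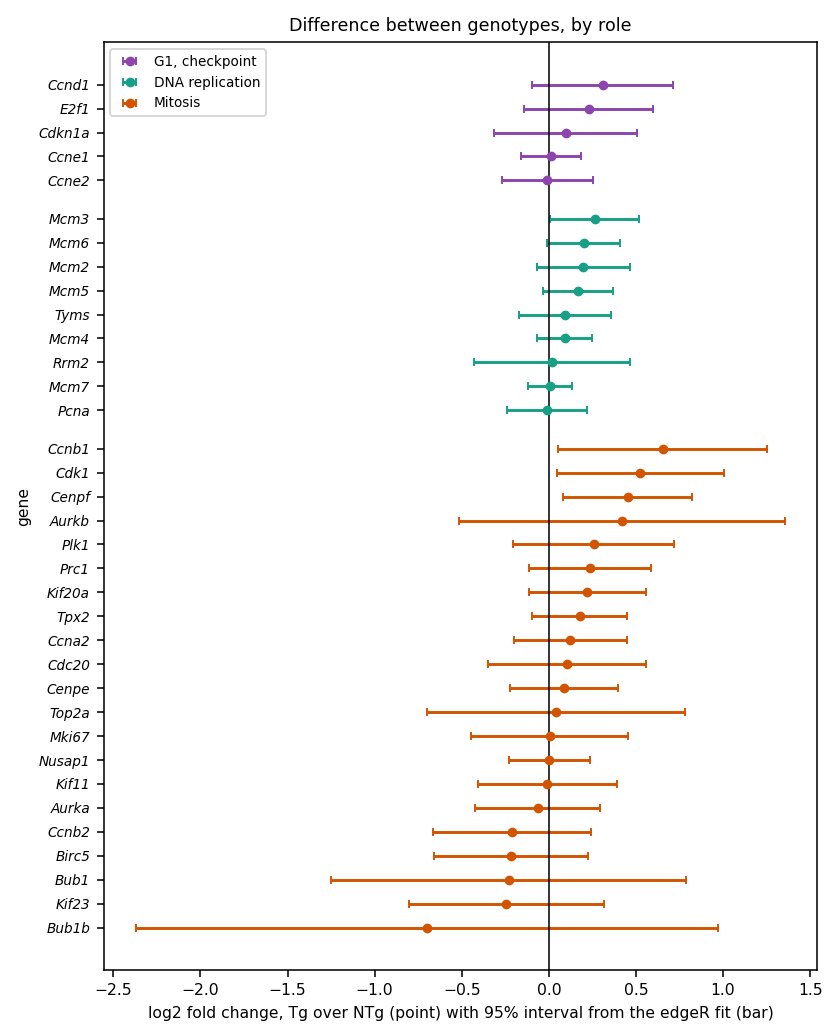
Log2 fold change of each member, Tg over NTg, with its 95% interval from the edgeR fit, ordered within each role by size. The intervals of Mcm3, Ccnb1, Cdk1 and Cenpf lie above 0 before adjustment for the number of genes, and the widest interval is that of Bub1b, −2.37 to 0.97.

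Among the G1 members, none passed at an unadjusted p under 0.05, against 7.36% of all genes. On average 4 of 5 were higher in Tg libraries (80%, against 49.2% of all genes). The median log2 fold change was 0.10, with 0.04 without Tg replicate 3 and 0.23 without Tg replicate 1 as its lowest and highest. Ccnd1 encodes cyclin D1, the partner of CDK4 and CDK6. It had 24.4, 37.0, 30.7 and 24.1 CPM in Tg replicates 1 to 4, against 21.2, 19.5, 32.1 and 21.03 CPM in NTg replicates 1 to 4. NTg replicate 3 was high among its group, and the groups overlapped through that library alone. The log2 fold change was 0.31 (SE 0.18, adjusted p = 0.815, edgeR), 0.50 without NTg replicate 3 and 0.17 without Tg replicate 2; the unadjusted p passed 0.05 only in the fit without NTg replicate 3, among those that left out 1 library.

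E2f1, an activating E2F factor, had 6.38, 8.14, 7.52 and 10.9 CPM in Tg replicates 1 to 4, against 8.37, 6.09, 7.11 and 6.51 CPM in NTg replicates 1 to 4. Tg replicate 4 was the highest library, Tg replicate 1 was below 3 of the 4 NTg libraries, and the groups overlapped. Its log2 fold change was 0.23 (SE 0.17, adjusted p = 0.866, edgeR), and 0.065 without Tg replicate 4. Cdkn1a encodes p21, the inhibitor of cyclin-dependent kinases that p53 induces. It had 10.1, 14.98, 17.5 and 14.0 CPM in Tg replicates 1 to 4, against 13.5, 15.4, 14.5 and 9.44 CPM in NTg replicates 1 to 4. Each genotype had 1 low library, Tg replicate 1 and NTg replicate 4, and the log2 fold change was 0.10 (SE 0.18, adjusted p = 0.970, edgeR), turning to −0.034 without NTg replicate 4.

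The E cyclins, which drive entry into S phase with CDK2, lay close together in the genotypes. Ccne1 had 13.5, 14.0, 13.04 and 15.04 CPM in Tg replicates 1 to 4, against 13.1, 12.6, 14.3 and 15.03 CPM in NTg replicates 1 to 4, with overlapping groups and a log2 fold change of 0.01 (95% interval −0.16 to 0.18). Ccne2 averaged 8.62 ± 0.629 CPM in Tg and 8.68 ± 1.42 CPM in NTg libraries (SD, n = 4 each), a log2 fold change of −0.01 (95% interval −0.27 to 0.25), which was 0.017 when scaled by library totals.

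**Figure D3:**
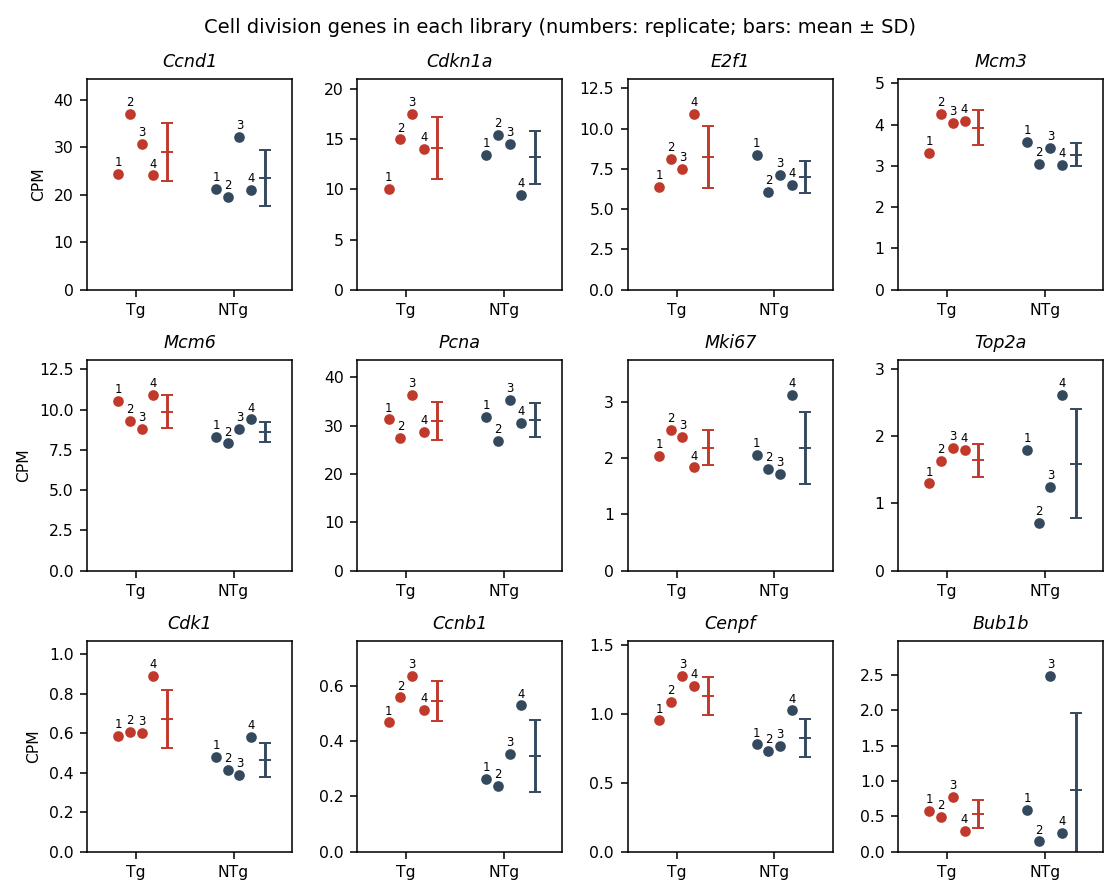
CPM of 12 members in each library, Tg left of NTg; points are libraries with their replicate number, and the bar beside each group is the mean ± SD of 4. Cdk1 is the only panel without overlap (lowest Tg library 0.589, highest NTg library 0.582), and in Mki67, Top2a and Cenpf NTg replicate 4 is the highest of its group.

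Among the replication members, 8 of 9 were higher on average in Tg libraries (88.89%, against 49.2% of all genes). At an unadjusted p under 0.05, 1 of the 9 was higher, Mcm3 (11.11%, against 4.68% of all genes). The median log2 fold change was 0.09, with 0.07 without Tg replicate 2 and 0.15 without NTg replicate 4. The helicase subunits Mcm2 to Mcm7 form one ring that is loaded on origins, and their log2 fold changes ran between 0.01 (Mcm7) and 0.26 (Mcm3). Mcm3 (ENSMUSG00000041859) had 3.32, 4.26, 4.04 and 4.10 CPM in Tg replicates 1 to 4, against 3.58, 3.05, 3.43 and 3.04 CPM in NTg replicates 1 to 4. Tg replicates 2, 3 and 4 lay above all NTg libraries, while Tg replicate 1 lay below 2 of them. The log2 fold change was 0.26 (SE 0.11, unadjusted p = 0.0463, adjusted p = 0.665, edgeR). Among fits that left out 1 library, its unadjusted p stayed under 0.05 only without Tg replicate 1 or NTg replicate 1. The DESeq2 Wald test gave an unadjusted p of 0.0516.

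Mcm6 had 10.5, 9.27, 8.79 and 10.9 CPM in Tg replicates 1 to 4, against 8.32, 7.90, 8.78 and 9.39 CPM in NTg replicates 1 to 4. Only NTg replicate 4 reached into the Tg range, and the log2 fold change was 0.20 (SE 0.09, adjusted p = 0.706, edgeR). Mcm5 had 6.399, 6.54, 6.99 and 6.79 CPM in Tg replicates 1 to 4, against 5.85, 5.39, 5.95 and 6.62 CPM in NTg replicates 1 to 4, again with an overlap through NTg replicate 4 alone (log2 fold change 0.17, SE 0.09, adjusted p = 0.766, edgeR). Mcm2 averaged 6.399 ± 0.629 CPM in Tg and 5.58 ± 0.746 CPM in NTg libraries (SD, n = 4 each), a log2 fold change of 0.20 (SE 0.12).

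Mcm4 had 12.6, 14.1, 14.1 and 14.0 CPM in Tg replicates 1 to 4, against 13.8, 12.7, 11.9 and 12.9 CPM in NTg replicates 1 to 4. Tg replicate 1 was low in its group and below 3 NTg libraries, so the groups overlapped at a log2 fold change of 0.09 (95% interval −0.07 to 0.25). Mcm7 had 14.7, 14.1, 13.8 and 13.6 CPM in Tg replicates 1 to 4, against 13.3, 14.5, 13.8 and 14.3 CPM in NTg replicates 1 to 4. Its libraries were interleaved, and its log2 fold change of 0.01 had the narrowest interval of the 35 members (−0.12 to 0.14).

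Pcna had 31.3, 27.4, 36.4 and 28.7 CPM in Tg replicates 1 to 4, against 31.8, 26.9, 35.3 and 30.6 CPM in NTg replicates 1 to 4. The log2 fold change was −0.01 (95% interval −0.24 to 0.22), and it was 0.015 when scaled by library totals. Pcna has a pseudogene copy, Pcna-ps2, with 793 to 1102 counts in Tg and 453 to 1096 counts in NTg libraries, so its own counts are uncertain. Rrm2, the small subunit of ribonucleotide reductase, averaged 1.42 ± 0.167 CPM in Tg and 1.40 ± 0.368 CPM in NTg libraries (SD, n = 4 each), a log2 fold change of 0.02. Tyms, thymidylate synthase, averaged 2.23 ± 0.188 CPM in Tg and 2.10 ± 0.188 CPM in NTg libraries (SD, n = 4 each), a log2 fold change of 0.09.

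Among the mitosis members, 14 of 21 were higher on average in Tg libraries and 7 lower (66.67% higher, against 49.2% of all genes). The median log2 fold change was 0.08. At an unadjusted p under 0.05, 3 were higher, Cdk1, Ccnb1 and Cenpf (14.29%, against 4.68% of all genes). That count of 3 was 0 without Tg replicate 4 or without NTg replicate 1, 2 or 3, and 1 without Tg replicate 3. The median was lower on leaving out Tg replicate 2 (0.03) or NTg replicate 2 (0.05), and higher on leaving out Tg replicate 1 (0.13) or NTg replicate 4 (0.17). The fits were looser than for replication, with a median SE of 0.20 in mitosis members and 0.10 in replication members. Cdk1 (ENSMUSG00000019942) and cyclin B1, encoded by Ccnb1 (ENSMUSG00000041431), form the kinase that starts mitosis. Cdk1 had 0.589, 0.608, 0.602 and 0.892 CPM in Tg replicates 1 to 4, against 0.479, 0.413, 0.391 and 0.582 CPM in NTg replicates 1 to 4. These are 39, 37, 35 and 52 counts in the Tg libraries, against 29, 26, 22 and 33 counts in the NTg libraries. The groups did not overlap, but Tg replicate 1 and NTg replicate 4 were nearly equal and Tg replicate 4 was far above its group. The log2 fold change was 0.53 (SE 0.21, unadjusted p = 0.0348, adjusted p = 0.606, edgeR), and 0.36 without Tg replicate 4.

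Ccnb1 had 0.468, 0.559, 0.637 and 0.514 CPM in Tg replicates 1 to 4, against 0.264, 0.238, 0.355 and 0.529 CPM in NTg replicates 1 to 4. NTg replicate 4 lay within the Tg range, and the other NTg libraries lay below it. The log2 fold change was 0.65 (SE 0.27, unadjusted p = 0.0354, adjusted p = 0.610, edgeR), and 0.93 without NTg replicate 4. Ccnb1 rests on few counts, and its pseudogene copy Ccnb1-ps also had a few. That copy had 3 to 6 counts in Tg libraries (0.0453 to 0.0987 CPM) and 0 to 4 in NTg libraries (0 to 0.0711 CPM), so the counts of Ccnb1 are uncertain. Cenpf (ENSMUSG00000026605) encodes a large protein of the kinetochore and nuclear matrix. It had 0.951, 1.09, 1.27 and 1.2001 CPM in Tg replicates 1 to 4, against 0.776, 0.731, 0.764 and 1.02 CPM in NTg replicates 1 to 4. NTg replicate 4 was again the exception, above Tg replicate 1, and the log2 fold change was 0.45 (SE 0.17, unadjusted p = 0.0219, adjusted p = 0.516, edgeR).

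Mki67 and Top2a, the customary markers of cycling cells, did not lean this way. Mki67 had 2.04, 2.50, 2.37 and 1.83 CPM in Tg replicates 1 to 4, against 2.06, 1.81, 1.72 and 3.12 CPM in NTg replicates 1 to 4. Its highest library was NTg replicate 4, and the log2 fold change was 0.00 (95% interval −0.45 to 0.45), or 0.23 without that library. Top2a, the topoisomerase that untangles sister chromatids, had 1.30, 1.63, 1.82 and 1.80 CPM in Tg replicates 1 to 4, against 1.80, 0.715, 1.24 and 2.61 CPM in NTg replicates 1 to 4. The NTg libraries spread to both sides of the Tg libraries, with a log2 fold change of 0.04 (95% interval −0.70 to 0.78) that was 0.39 without NTg replicate 4 and −0.20 without NTg replicate 2.

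The mitosis members with the most CPM were spindle proteins. Prc1, which bundles the microtubules of the central spindle, had 3.95, 2.96, 3.49 and 4.23 CPM in Tg replicates 1 to 4, against 3.73, 3.38, 2.65 and 2.66 CPM in NTg replicates 1 to 4 (log2 fold change 0.24, SE 0.16). Tpx2, the activator of aurora A at the spindle, had 3.24, 3.39, 3.77 and 3.58 CPM in Tg replicates 1 to 4, against 3.12, 3.54, 2.54 and 3.16 CPM in NTg replicates 1 to 4 (log2 fold change 0.18, SE 0.12). In both genes the groups overlapped. Nusap1 had 3.68, 3.62, 3.58 and 3.10 CPM in Tg replicates 1 to 4, against 3.81, 3.29, 3.29 and 3.58 CPM in NTg replicates 1 to 4. Its log2 fold change was 0.00 (95% interval −0.23 to 0.23), and it was −0.0027 under RLE scaling.

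The 13 remaining mitosis members had log2 fold changes between −0.70 and 0.42, none at an unadjusted p under 0.05. The kinesins differed in sign: Kif20a, which acts in cytokinesis, had a log2 fold change of 0.22, Kif23 of the central spindle −0.24, and Kif11, which separates the spindle poles, −0.01, or 0.017 when scaled by library totals. The kinases Plk1 (0.26), Aurkb (0.42) and Aurka (−0.06) and the survivin gene Birc5 (−0.22), a partner of aurora B, also went both ways. Leaving out 1 library at a time gave 0.10 to 0.41 for Plk1, 0.21 to 0.79 for Aurkb, −0.31 to −0.11 for Birc5 and −0.37 to −0.07 for Kif23. Ccna2, cyclin A2, had a log2 fold change of 0.12, Cdc20 of 0.10 and the kinetochore motor Cenpe of 0.08. Ccnb2, cyclin B2, had −0.21, but its copy Ccnb2-ps had 161 to 255 counts in Tg and 201 to 238 counts in NTg libraries, so its counts are uncertain.

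Bub1b, which encodes the spindle checkpoint protein BubR1, had the largest SE of the 35 members. It had 0.573, 0.493, 0.774 and 0.291 CPM in Tg replicates 1 to 4, against 0.594, 0.143, 2.49 and 0.265 CPM in NTg replicates 1 to 4. NTg replicate 3 was the highest library and NTg replicate 2 the lowest. The log2 fold change of −0.70 (SE 0.75) turned to 0.67 without NTg replicate 3, and limma-voom gave 0.067. Bub1, its partner kinase at the checkpoint, had 0.257, 0.280, 0.120 and 0.223 CPM in Tg replicates 1 to 4, against 0.248, 0.159, 0.124 and 0.512 CPM in NTg replicates 1 to 4. Its highest library was NTg replicate 4, not NTg replicate 3, and its log2 fold change of −0.23 turned to 0.31 without that library. Library preparation did not mark strand, and the spans of 8 members overlap that of a coding gene on the other strand in GENCODE M21. These members are Nusap1, Ccna2, Ccne2, Cdc20, Mcm7, Prc1, Ccnd1 and Kif20a. Reads from the stretch that such a pair shares cannot be told apart by strand. Whether the exons of these pairs overlap was not examined.

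**Figure D4:**
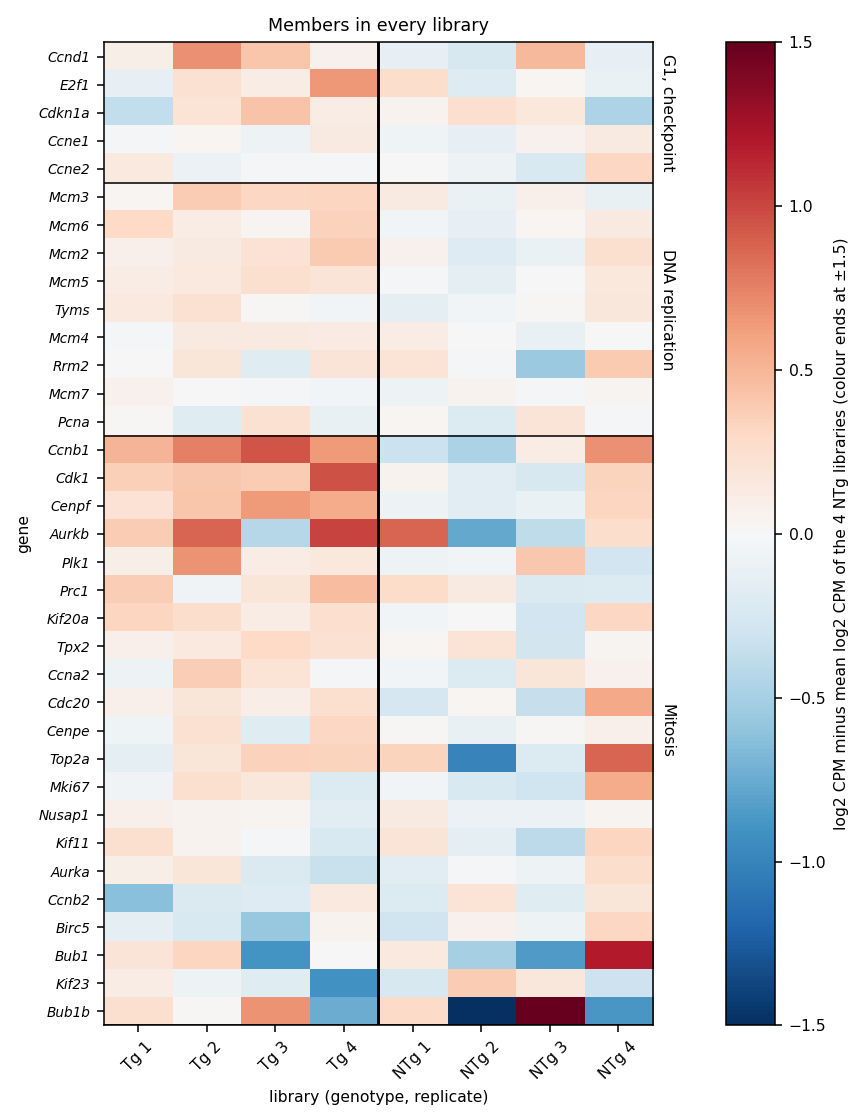
Log2 CPM of each member in each library minus its mean over the 4 NTg libraries, Tg replicates 1 to 4 left of NTg replicates 1 to 4, rows by role. The column of NTg replicate 4 is red through much of mitosis, where it is the highest library in 7 of 21 members, and NTg replicates 2 and 3 are the lowest in 6 and 7 of them.

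Each library was scored by the mean log2 CPM of the members. The replication and mitosis members both differed by 0.12 log2 units between genotypes. The same score over genes that are not members differed by 0.04 in replication (44 genes) and 0.16 in mitosis (46 genes). The 46 include the securin gene Pttg1, which was far lower in Tg replicate 1 and NTg replicates 1 and 2 than elsewhere. The score without Pttg1 was not computed. Relative to the NTg mean, the replication score was 0.08, 0.13, 0.11 and 0.15 in Tg replicates 1 to 4, against 0.03, −0.09, −0.05 and 0.11 in NTg replicates 1 to 4. Tg libraries lay above NTg replicates 1, 2 and 3, and NTg replicate 4 lay within the Tg range. The difference, Tg minus NTg, was 0.12 log2 units (SD between libraries 0.03 in Tg and 0.09 in NTg, n = 4 each). The mitosis score was 0.09, 0.21, 0.07 and 0.12 in Tg replicates 1 to 4, against 0.02, −0.20, −0.03 and 0.21 in NTg replicates 1 to 4. Here NTg replicate 4 was level with the highest Tg library, Tg replicate 2, and the difference was 0.12 (SD 0.06 in Tg and 0.17 in NTg, n = 4 each). This difference was smaller than the spread of the NTg libraries. It was 0.06 without NTg replicate 2 and 0.19 without NTg replicate 4, and the replication difference was 0.09 and 0.15 without the same libraries.

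The replication score minus the mitosis score showed no separation of the genotypes: −0.02, −0.08, 0.04 and 0.04 in Tg replicates 1 to 4, against 0.01, 0.11, −0.02 and −0.10 in NTg replicates 1 to 4, with a mean difference of −0.0066. The largest imbalances of this kind were within the NTg group, in NTg replicates 2 and 4. The G1 score was −0.06, 0.21, 0.17 and 0.19 in Tg replicates 1 to 4, against 0.02, −0.08, 0.10 and −0.05 in NTg replicates 1 to 4. Tg replicate 1 was below 3 of the NTg libraries, and the difference was 0.13. Over all 35 members the score was 0.07, 0.19, 0.10 and 0.14 in Tg replicates 1 to 4, against 0.02, −0.15, −0.02 and 0.15 in NTg replicates 1 to 4. The difference was 0.12, or 0.07 without NTg replicate 2, and 0.03 when the median over members replaced the mean.

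The highest and lowest levels were uneven over the NTg libraries. NTg replicate 4 was the highest of the 8 libraries in 9 of 35 members, 7 of them mitosis members, and in 13 of 46 other mitosis genes. NTg replicate 2 was the lowest library in 13 of 35 members and NTg replicate 3 in 10 of 35. The T cell markers also differed between these libraries: relative to the NTg mean, the mean log2 CPM of 7 tested markers was 0.73 in Tg replicate 3 and −0.22 to −0.0048 in the other Tg libraries, against 1.08 in NTg replicate 4, −0.86 in NTg replicate 2 and −0.26 and 0.04 in NTg replicates 3 and 1. Cd8a, the co-receptor of cytotoxic T cells, had 0.151, 0.214, 1.07 and 0.0686 CPM in Tg replicates 1 to 4, against 0.281, 0.0318, 0.267 and 1.78 CPM in NTg replicates 1 to 4. It was picked from the 7 markers outside the rule for naming genes, and the others are not given by library. The summed level of the T cell markers was 6.58 to 10.8 CPM in Tg and 8.01 to 13.5 CPM in NTg libraries, and none of the tested markers was at 0 in any library. Of the 7, 1 was higher on average in Tg libraries and 6 lower, none at an unadjusted p under 0.05; their part in the members' values was not tested.

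Markers of the cells known to divide in forebrain did not all follow the members. All 13 microglial markers were higher in Tg libraries at an unadjusted p under 0.05, with summed levels of 551 to 977 CPM in Tg and 412 to 547 CPM in NTg libraries; 4.68% of all genes were higher at that threshold. An adjusted p under 0.05 was reached by 0 of 13 in edgeR, 0 in limma-voom and 8 in DESeq2, and by 10 in edgeR without Tg replicate 1. Tg replicate 1, the lowest Tg library in microglial markers, was also the lowest Tg library in the replication score (0.08, beside 0.11 to 0.15) and in the G1 score (−0.06, beside 0.17 to 0.21), but not in the mitosis score (0.09, beside 0.07 to 0.21). Of 12 markers of oligodendrocyte precursors, 7 were higher on average in Tg libraries and 5 lower, 1 of these (Olig2) at an unadjusted p under 0.05, with summed levels of 638 to 690 CPM in Tg and 642 to 665 CPM in NTg libraries. Of 13 markers of neural progenitors and neuroblasts, 7 were higher on average and 6 lower, 1 of these (Hes5) at an unadjusted p under 0.05, with summed levels of 148 to 199 CPM in Tg and 135 to 176 CPM in NTg libraries. Their mean log2 CPM relative to the NTg mean was between −0.44 and 0.43 in Tg and between −0.38 and 0.43 in NTg libraries, a wider spread than that of the members. Of all genes tested, 49.2% were higher on average in Tg libraries, and 2.68% were lower at an unadjusted p under 0.05. Among markers of other cells, 7 of 8 of astrocytes were higher on average, 3 of them at that threshold (summed 4492 to 6294 CPM in Tg and 4108 to 4939 CPM in NTg). All 8 of endothelium were lower, 4 at that threshold (139 to 201 CPM in Tg and 202 to 234 CPM in NTg). All 8 of choroid plexus were lower, 5 at that threshold (322 to 585 CPM in Tg and 619 to 934 CPM in NTg). None of these markers reached an adjusted p under 0.05 in edgeR. No tested marker of these lists was at 0 in any library, and their part in the members' values was not tested.

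**Figure D5:**
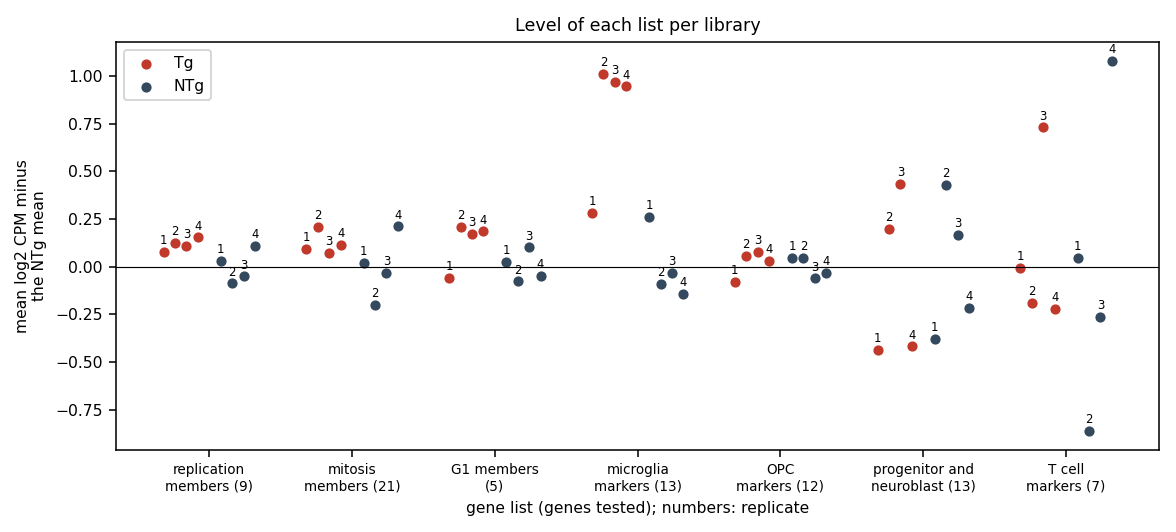
Mean log2 CPM of the replication, mitosis and G1 members and of 4 lists of cell markers in each library, minus the NTg mean; points are libraries with their replicate number, Tg left of NTg. The replication and mitosis members differ by 0.12 between genotypes and NTg replicate 4 overlaps the Tg libraries, whereas the microglial markers reach 0.94 to 1.01 in Tg replicates 2, 3 and 4.

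Genes of the same phases that are not members were tested in the same fit. Of 137 other cell cycle genes, 134 were tested and 0 had an adjusted p under 0.05 in edgeR. At an unadjusted p under 0.05, 9 were higher (6.716%) and 1 lower in Tg libraries, against 4.68% and 2.68% of all genes. On average 95 were higher and 39 lower (70.9% higher, against 49.2% of all genes), with a median log2 fold change of 0.05. The count of 9 was 3 without NTg replicate 1 or NTg replicate 3, 4 without Tg replicate 2, Tg replicate 4 or NTg replicate 2, and 16 without NTg replicate 4, and it was 7 in DESeq2. The median was 0.08 without NTg replicate 4. In 6 of them (4.478%) every Tg library lay above every NTg library, against 2.62% of all genes. In direction, other mitosis genes leaned furthest, with 37 of 46 higher on average (80.43%, against 49.2% of all genes) and a median log2 fold change of 0.12. At an unadjusted p under 0.05, 4 were higher (8.696%, against 4.68% of all genes). Of these, 3 are kinesins: Kif18a, which damps chromosome oscillation, had 1.30, 1.27, 1.29 and 1.32 CPM in Tg replicates 1 to 4, against 1.07, 0.858, 1.07 and 0.794 CPM in NTg replicates 1 to 4. These groups did not overlap (log2 fold change 0.45, SE 0.14, unadjusted p = 0.0110, adjusted p = 0.385, edgeR). Kif22, a motor on chromosome arms, had log2 fold change 0.33, Kif15, a spindle motor, 0.39, and Fam83d, a spindle protein, 0.63, or 0.35 without Tg replicate 4. The count of 4 was 1 without NTg replicate 1, 2 without NTg replicate 2 or NTg replicate 3, and 8 without NTg replicate 4. The median was 0.07 without NTg replicate 1 or NTg replicate 2 and 0.22 without NTg replicate 4.

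Other replication genes gave 30 of 44 higher on average (68.18%, against 49.2% of all genes) and a median log2 fold change of 0.02. At an unadjusted p under 0.05 there were 0 in either direction, against 7.36% of all genes. The 4 with the smallest p were Rfc3, a subunit of the clamp loader, at 0.17, Chaf1b, a chromatin assembly factor, at 0.45, the chromatin remodeller Hells at 0.18, and Gins2 of the replicative helicase at 0.22 (log2 fold changes). Other G1 regulators were split, 12 higher on average and 10 lower (54.55% higher, against 49.2% of all genes). Their median was 0.01 (between −0.0086 and 0.05 when 1 library was left out). Cdk4, the kinase partner of cyclin D1, had 34.997, 35.1, 34.0 and 35.6 CPM in Tg replicates 1 to 4, against 30.7, 33.7, 33.3 and 32.1 CPM in NTg replicates 1 to 4. Every Tg library was above every NTg library, by a log2 fold change of 0.11 (SE 0.05, unadjusted p = 0.0435, adjusted p = 0.653, edgeR). Among fits that left out 1 library, the unadjusted p of Cdk4 stayed under 0.05 only without Tg replicate 3 or NTg replicate 2. Tfdp2, a partner of E2F factors, was lower at −0.11 (unadjusted p = 0.0453, adjusted p = 0.659, edgeR), and Ccnd3 and Myc had log2 fold changes of 0.11 and 0.20.

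The last list holds inhibitors of the cycle and targets of p53, which do not all act on the cycle. Of 22 inhibitors and p53 targets, 16 were higher on average in Tg libraries and 6 lower (72.73% higher, against 49.2% of all genes). The median log2 fold change was 0.05. At an unadjusted p under 0.05, 4 were higher (18.18%, against 4.68% of all genes). That count was 2 in DESeq2. It was 1 without Tg replicate 2, Tg replicate 4, NTg replicate 2 or NTg replicate 3, and 2 without Tg replicate 3 or NTg replicate 1. The median was lower on leaving out Tg replicate 2 (0.02) or NTg replicate 3 (0.03), and higher on leaving out Tg replicate 1 (0.08). Bax, a p53 target that promotes apoptosis, had 16.6, 18.0, 17.4 and 18.8 CPM in Tg replicates 1 to 4, against 15.9, 15.4, 15.6 and 16.3 CPM in NTg replicates 1 to 4. The groups did not overlap, at a log2 fold change of 0.16 (SE 0.06, unadjusted p = 0.0157, adjusted p = 0.448, edgeR). Cdkn2a, the locus of p16 and ARF, had 0.211, 0.559, 0.774 and 0.514 CPM in Tg replicates 1 to 4, against 0.347, 0.318, 0.249 and 0.212 CPM in NTg replicates 1 to 4. Tg replicate 1 was the lowest of all 8 libraries and the other 3 Tg libraries the highest, with a log2 fold change of 0.85 (SE 0.37, unadjusted p = 0.0421, adjusted p = 0.645, edgeR). Among fits that left out 1 library, the unadjusted p of Cdkn2a stayed under 0.05 only without Tg replicate 1 or NTg replicate 1. The limma-voom test gave an unadjusted p of 0.108. Cdkn2c, which encodes the CDK inhibitor p18, had a log2 fold change of 0.32 and the stress gene Gadd45g 0.35, or 0.22 without Tg replicate 4.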

How the data were processed

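The deposited table holds raw counts for 8 libraries, which the authors did not normalize, in 56748 rows of Ensembl genes, all with an identifier. Per the labels' protocols, RNA was extracted with TRIzol and RNeasy columns and DNase, and TruSeq version 2 libraries, which do not mark strand, were sequenced in pools as paired 75-base reads. STAR, DESeq2 and the build GRCm39 are named per the submitters' processing notes. The sources used here give no version, counting tool or annotation release. Symbols came from a table of Ensembl identifiers (52073 matched). Members, lists and tests were chosen with earlier results of these data known.

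Genes passing filterByExpr (minimum count 10, minimum total 15) were scaled by TMM and tested, all together, with edgeR 4.0.16's quasi-likelihood test, Tg against NTg, with Benjamini-Hochberg adjusted p-values over 21588 genes (R 4.3.3). SE is the log2 fold change divided by the square root of F; log2 CPM used a prior count of 2. The script was tested on simulated data. DESeq2 1.42.0, limma 3.58.1 voom, other scalings and filters and leaving out each library were tried. Named were members at an unadjusted p under 0.05 and the 3 of each role with the most CPM. Mki67, Top2a, Cdk1, Cdkn1a, Ccnd1 and E2f1 were also named, with up to 4 genes of smallest p in each other list. Mcm5, Mcm6, Bub1 and Bub1b were given in full after their values were seen. The T cell marker Cd8a was given outside this rule. Exon lengths and overlaps came from GENCODE M21 (GRCm38), an older build than that of the counts. No 2 libraries of a genotype agreed within sampling noise (chi-square per degree of freedom at least 10.9). With 57129090 to 65242741 counts per library, 1 count was 0.0151 to 0.0178 CPM, so members under 1 CPM rest on few counts.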

Additional observations from a re-analysis of the deposited data

Results flagged for a closer look

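Of 78 sets of 4 libraries examined (each genotype's values of the 35 members, and of the scores over all members and each role), 6 held a library far from the other 3 relative to the range of the 4; chance gives about 1 in 20. Cdk1 was 0.892 CPM in Tg replicate 4, above the next Tg library at 0.608 CPM. Plk1 was 1.2003 CPM in Tg replicate 2, above the next at 0.840 CPM. Mcm4 was 12.6 CPM in Tg replicate 1, below the next at 14.0 CPM, and the mean log2 CPM of the 5 G1 members was 3.53 in the same library, below the next at 3.76. Ccnd1 was 32.1 CPM in NTg replicate 3, above the next NTg library at 21.2 CPM. Cenpf was 1.02 CPM in NTg replicate 4, above the next at 0.776 CPM.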

How the results depend on the processing

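The number of members at an adjusted p under 0.05 was 0 under every alternative run, 0 to 0 when each library was left out. Genes called over the whole table, 3 here, were 352 with DESeq2, 127 with no filter on low counts, 1 with the replicate block and 3 to 314 when each library was left out. The labels do not say that the replicate numbers pair the libraries. The correlation of same-numbered deviations was −0.03 to 0.16, over 0.1 in 1 of 4 pairs. Of 8 libraries, 3 correlated best with their own number. With so few libraries these values cannot decide whether the numbers mark pairs. Members higher at an unadjusted p under 0.05 (a count and its alternatives added after seeing the data), 4 here, were 1 with DESeq2, 2 of 26 at CPM of at least 1 in 4 libraries and 0 to 7 when each library was left out. The score differences of 0.12 ran from 0.07 to 0.17 (all members), 0.09 to 0.15 (replication) and 0.06 to 0.19 (mitosis) when each library was left out; the median over members gave 0.19 for replication. Of 805 alternative log2 fold changes of 51 named genes, 755 kept sign and threshold side and 50 reversed, in 14 genes, 40 of them on leaving out a library; the cause was not tested. Signs reversed in Ccne2 (0.0055 with limma-voom, 0.0168 by totals, 0.0013 with the replicate block), Pcna (0.0153 by totals), Bub1b (0.0674 with limma-voom), Kif11 (0.0123 with limma-voom, 0.0174 by totals, 0.0060 with the block) and Nusap1 (−0.0020 with DESeq2, −0.0027 under RLE). Leaving out each library gave Aurka −0.15 to 0.0325, Bub1 −0.46 to 0.31, Bub1b −1.06 to 0.67, Ccne1 −0.0270 to 0.0588, Ccne2 −0.0801 to 0.11, Cdc20 −0.0036 to 0.33, Cdkn1a −0.0337 to 0.23, Kif11 −0.12 to 0.11, Mcm7 −0.0176 to 0.0249, Mki67 −0.0915 to 0.23, Nusap1 −0.0273 to 0.0536, Pcna −0.0956 to 0.0564, Rrm2 −0.14 to 0.15 and Top2a −0.20 to 0.39. Depth limits the mitosis members most, with 6 to 262 counts per library.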

Other observations

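Pttg1, which encodes securin, the inhibitor of separase, is among the other mitosis genes and was picked out after its values were seen. It had 0.845, 12.7, 12.7 and 13.1 CPM in Tg replicates 1 to 4, against 0.776, 0.588, 13.2 and 11.8 CPM in NTg replicates 1 to 4. The low libraries, Tg replicate 1 and NTg replicates 1 and 2, had 56, 47 and 37 counts, and the other 5 had 666 to 774 counts. The low and high libraries were in both genotypes. More of the low ones were NTg, so Pttg1 is part of the score difference of 0.16 in the other mitosis genes, by an amount not computed.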
